A study of Saccharomyces cerevisiae with 3 samples.

Results

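The genes described here are 41 genes of the pheromone response and mating pathway of budding yeast, out of 6002 protein-coding genes with a promoter window. They were taken from a list of names that includes pheromones, receptors, signalling proteins, regulators, and proteins of adhesion and fusion. DNase-seq, which sequences the ends that DNase I leaves in open chromatin, was done on nuclei of 3 strains, and each library is represented by 1 list of hypersensitive sites. The sba1Δ strain (genotype sba1-/-) is deleted for SBA1, whose product is yeast p23 and works with the chaperone Hsp90. The gcn5Δ strain (genotype gcn5-/-) is deleted for GCN5, which encodes the histone acetyltransferase of SAGA. Wild type is their parent, BY4741, a haploid MATa strain. Cells of all strains grew in YPD, and the labels name no pheromone treatment. The series title names the joint action of p23 and GCN5 on open chromatin as the subject.

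Haploid yeast cells of mating type a secrete a-factor and respond to alpha-factor from the opposite type. The receptor releases the beta and gamma subunits of a G protein, which set off a cascade of kinases on the scaffold Ste5, and the kinases Fus3 and Kss1 relieve the transcription factor Ste12 of its inhibitors Dig1 and Dig2. Ste12 then drives genes for adhesion, cell fusion and nuclear fusion, many of which are transcribed at a low level in cells that have met no pheromone.

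The lists held 2439 sites in sba1Δ, 3062 in gcn5Δ and 3260 in wild type. Nuclear sites had a median width of 350 bp in sba1Δ, 261 bp in gcn5Δ and 247 bp in wild type, so counts and coverage below are set beside the same measure over all genes. With 1 library per strain no difference has a replicate check, and no strain was tested against another. The lists carry no read depth, and the absence of a listed site does not show closed chromatin. A site's rank is given as the percent of its own list that it exceeds by the authors' score, and ranks from different lists show no change. Positions are on sacCer3.

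A promoter site, meaning a site that shares at least 1 bp with the 500 bp upstream of the start codon, was listed at 20 of the 41 genes in sba1Δ, 27 in gcn5Δ and 26 in wild type. These are shares of 48.8% (32.9 to 64.9) in sba1Δ, 65.9% (49.4 to 79.9) in gcn5Δ and 63.4% (46.9 to 77.9) in wild type, with exact binomial 95% intervals. Over all 6002 genes the shares were 38.7%, 43.9% and 43.2% in the same order. The mating genes thus lay above all genes in each full list, by the least in sba1Δ, whose interval includes the share of all genes.

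Of the 26 genes with a promoter site in wild type, 9 had none in sba1Δ, which is 34.6% (17.2 to 55.7) beside 36.5% of all genes. A promoter site that wild type lacked was listed in sba1Δ at 3 of 15 genes, or 20.0% beside 19.7% of all genes. Both shares were near the background at this score limit. In gcn5Δ 0 of the 26 genes had lost the site, which allows a share of up to 11.5%, beside 14.0% of all genes. FUS2 alone had one that wild type lacked, 1 of 15 or 6.67% beside 11.9% of all genes, and its gcn5Δ site also dropped out when the lists were trimmed by score to one size. These shares depended on how the lists were cut by score. In the better-scored 50% of each list, 10 of the 41 genes had a promoter site in sba1Δ, or 24.4% beside 27.1% of all genes, and 23 in wild type, or 56.1% beside 27.4%. Of those 23, 15 had none among the better-scored sba1Δ sites, or 65.2% (42.7 to 83.6) beside 42.3% of all genes. Among the better-scored gcn5Δ sites 5 had none, or 21.7% (7.46 to 43.7) beside 16.2%. Each list was cut at its own median score, so a site can miss this cut and still be listed. In the full lists MFA1, MFA2, ASG7, STE7, STE12, FUS1, PRM1 and PRM2 kept a site in sba1Δ, as did all 5 in gcn5Δ. The share without a site in sba1Δ thus lay above that of all genes in the better-scored 50% and near it in the full lists. It was also near it with the lists trimmed by score to one size, at 8 of 25 or 32.0% beside 30.2%. In all, 17 genes had a promoter site in each of the 3 lists, 12 had none in any, and 9 had it in gcn5Δ and wild type but not in sba1Δ.

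**Figure D1:**
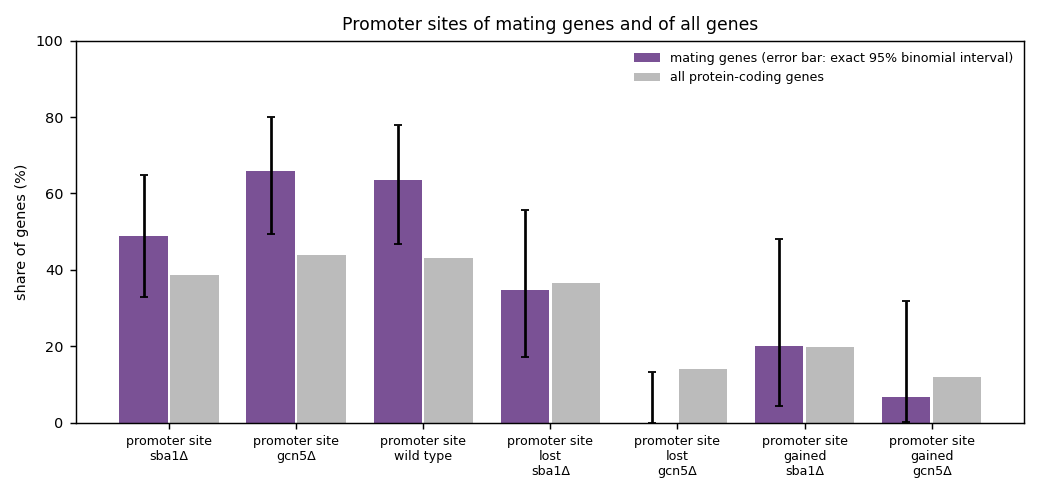
Share of genes (%, vertical axis) with a promoter site in each list, and the shares of sites lost or gained in each deletion strain relative to wild type, for the 41 mating genes (purple, with exact 95% binomial intervals) and for all protein-coding genes (grey, no interval). The mating genes stand at 48.8%, 65.9% and 63.4% in sba1Δ, gcn5Δ and wild type, against 38.7%, 43.9% and 43.2% of all genes, while the shares lost in sba1Δ are close at 34.6% and 36.5%.

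The a-specific genes are transcribed in a cells and shut off by the alpha2 repressor in alpha cells, and they were set beside alpha-specific genes. Of 7, a promoter site was listed at 4 in sba1Δ, 6 in gcn5Δ and 6 in wild type. These are 57.1%, 85.7% and 85.7%, beside 38.7%, 43.9% and 43.2% of all genes. Of 4 alpha-specific genes, STE3, which encodes the a-factor receptor, MF(ALPHA)2, an alpha-factor gene, and SAG1, the alpha-agglutinin gene, had no promoter site in any list. MF(ALPHA)1, the main alpha-factor gene, had one in all 3, at chromosome XVI 193282 to 193460 in sba1Δ, 193209 to 193487 in gcn5Δ and 193182 to 193509 in wild type. No other gene's promoter window lay under those sites. At the silent locus HMR, the gene HMRA1 was covered at 100% in all 3 lists, while HMLALPHA1, HMLALPHA2, MATALPHA1 and MATALPHA2 had neither promoter nor coding sites. The gene table carries the alpha genes at MAT as well as at HML, so an a strain's own MAT genes have no place of their own in it. How reads from repeated sequence were placed is not known, so the absence of sites at the alpha genes cannot be read. What this contributes at HMR was not tested.

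MFA1 and MFA2 encode the a-factor precursors. At MFA1 (YDR461W) the site covered 185 bp of the 500-bp window in sba1Δ, 112 bp in gcn5Δ and 259 bp in wild type, where it lay at chromosome IV 1384779 to 1385037, 397 to 139 bp upstream of the start codon. At MFA2 (YNL145W) the covered lengths were 164 bp in sba1Δ, 232 bp in gcn5Δ and 246 bp in wild type. The wild-type MFA2 site was centred in YNL146W, the next gene upstream. Both a-factor genes thus kept a site in every list, with the most covered bases in wild type, and no coding base of either was under a site.

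BAR1 encodes the secreted protease that degrades alpha-factor. Its promoter site was absent in sba1Δ, covered 188 bp in gcn5Δ and 229 bp in wild type, where it lay at chromosome IX 321964 to 322192 and ranked above 55.8% of its list. AGA2, the gene of the binding subunit of a-agglutinin, had the same pattern with 0 bp in sba1Δ, 239 bp in gcn5Δ and 258 bp in wild type. The AGA2 wild-type site was at chromosome VII 436883 to 437140, 307 to 50 bp upstream of the start codon. No sba1Δ site touched the wild-type site at either gene.

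STE6 encodes the transporter that exports a-factor, and it had the highest-ranked wild-type promoter site of all 41 genes, above 90.3% of that list. It lay at chromosome XI 46163 to 46721 in wild type, and the covered window was 392 bp in sba1Δ, 430 bp in gcn5Δ and 426 bp in wild type. In all 3 lists the site also lay under the window of the divergent gene CBT1, so it cannot be assigned to STE6 alone. Inside STE6, a site at 44623 to 44905 in wild type and a narrower one in gcn5Δ had no counterpart in sba1Δ. Coding coverage of STE6 was 1.32% in sba1Δ, 5.55% in gcn5Δ and 10.7% in wild type. ASG7, whose product acts on the receptor-coupled pathway of mating cells, had 203 bp of its window covered in sba1Δ, 309 bp in gcn5Δ and 373 bp in wild type. ASG7 also had a site within its coding sequence in all 3 lists, at chromosome X 101472 to 101578 in sba1Δ, 101470 to 101598 in gcn5Δ and 101477 to 101613 in wild type. STE2, the alpha-factor receptor gene and also a-specific, had neither a promoter nor a coding site in any list.

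Among the 4 genes of pheromone processing, none had a promoter site in gcn5Δ or wild type, beside 43.9% and 43.2% of all genes. STE14, the methyltransferase of a-factor, had one in sba1Δ, at chromosome IV 1293206 to 1293380, that ranked above 22.4% of its list. A second and wider sba1Δ site reached the far end of the STE14 window. STE24, a protease that matures a-factor, was called in sba1Δ through a site of 4395 bp at chromosome X 637156 to 641550, which shared 44 bp with its window and overlapped the windows of 5 genes besides. STE13 and STE23, proteases that act on alpha-factor and a-factor, had no promoter site in any list, and STE23 had a coding site that covered 0% in sba1Δ, 1.72% in gcn5Δ and 5.48% in wild type.

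The G protein genes all had a promoter site in gcn5Δ and in wild type, 4 of 4, beside 43.9% and 43.2% of all genes. In sba1Δ 2 of 4 had one, or 50.0% beside 38.7%. GPA1, the alpha subunit, had 303 bp of its window covered in sba1Δ, 412 bp in gcn5Δ and 500 bp in wild type, where the site ran 1070 bp, from chromosome VIII 114866 to 115935. At STE4, the beta subunit, the covered lengths were 263 bp in sba1Δ, 400 bp in gcn5Δ and 318 bp in wild type. STE18, the gamma subunit, had no promoter site in sba1Δ, 276 bp covered in gcn5Δ and 295 bp in wild type, at chromosome X 585773 to 586098. The STE18 site also lay under the window of the divergent gene TMH11, and it entered the coding sequence in wild type, covering 9.31% of it, against 0% in sba1Δ and 0% in gcn5Δ. SST2, which encodes the protein that returns Gpa1 to its inactive state, had no promoter site in sba1Δ, 53 bp in gcn5Δ and 83 bp in wild type. That SST2 site was centred in RIF2, the gene upstream, in both lists that held it.

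**Figure D2:**
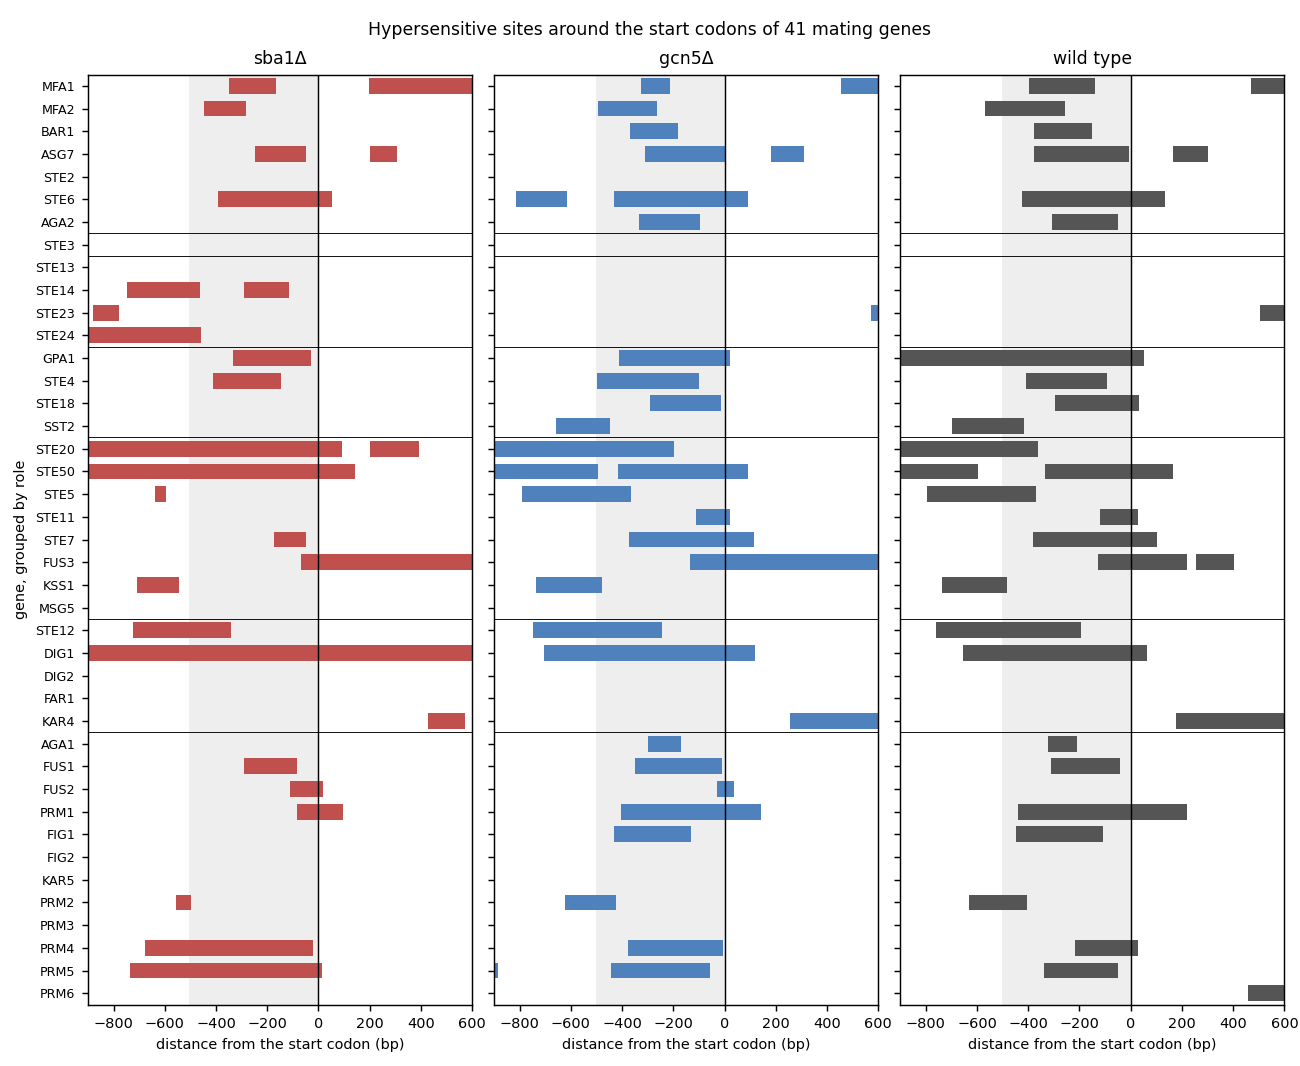
Positions of hypersensitive sites relative to the start codon (horizontal axis, bp, negative upstream) for the 41 mating genes, grouped by role with lines between groups, in sba1Δ, gcn5Δ and wild type. Bars are sites, clipped at the edges of the axis, and the shaded band is the 500-bp promoter window; BAR1, AGA2, STE18, STE11, AGA1 and FIG1 have a bar there in gcn5Δ and wild type and none in sba1Δ.

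Of the 8 genes of the kinase cascade, 4 had a promoter site in sba1Δ, 7 in gcn5Δ and 7 in wild type. These are 50.0%, 87.5% and 87.5%, beside 38.7%, 43.9% and 43.2% of all genes. STE11, the top kinase of the MAP kinase module, had none in sba1Δ, 111 bp covered in gcn5Δ and 120 bp in wild type, at chromosome XII 849746 to 849892, across the start codon. STE5, the scaffold, had none in sba1Δ, 134 bp in gcn5Δ and 130 bp in wild type. KSS1, a kinase that acts beside Fus3, had none in sba1Δ, 22 bp in gcn5Δ and 19 bp in wild type. At STE5 and KSS1 the loss depended on the window's edge. An sba1Δ site still lay on the wild-type site at both genes, with its near edge 595 bp upstream of STE5 and 543 bp upstream of KSS1. At STE5 it was 43 bp wide, against 424 bp in wild type, and ranked above 1.68% of its list. At KSS1 it was 166 bp wide, against 255 bp in wild type, and ranked above 51.7%. The other 7 of the 9 genes had no sba1Δ site on the wild-type one. The calls just inside the edge were those of PRM2 in sba1Δ, by 5 bp, and of KSS1.

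STE7, the middle kinase, had 129 bp of its window covered in sba1Δ, 372 bp in gcn5Δ and 382 bp in wild type. STE20, the kinase that receives the signal from the G protein, had 500 bp covered in sba1Δ, 302 bp in gcn5Δ and 140 bp in wild type, in each list by a site centred in SHU1, the gene upstream. STE50, an adaptor of Ste11, had 500 bp covered in sba1Δ, 424 bp in gcn5Δ and 333 bp in wild type. There sba1Δ listed a site of 1967 bp, centred in LSB5, where gcn5Δ and wild type each listed separate sites. The upstream kinase and the adaptor thus had the most covered bases in sba1Δ, and the middle kinase the fewest. MSG5, a phosphatase of Fus3, had no promoter site in any list.

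FUS3, the main kinase of mating, was under the highest-ranked sites of the set. In sba1Δ there was a site of 2808 bp at chromosome II 192381 to 195188, above 99.5% of its list, and in gcn5Δ a site of 2099 bp at 192316 to 194414, above 99.4%. Wild type had 3 sites there, at 192325 to 192668, 192703 to 192852 and 193088 to 194426, of which the last ranked above 99.6%. All of the FUS3 coding sequence was under a site in sba1Δ and in gcn5Δ, 100% each, against 74.7% in wild type. The high-ranked site reached past the 3 prime end into ACH1, an acetyl-CoA hydrolase gene, and lay under the ACH1 promoter window in all 3 lists. In wild type it did not touch the FUS3 window, and the FUS3 promoter site ranked above 69.1% of that list. In the FUS3 promoter window the covered lengths were 70 bp in sba1Δ, 135 bp in gcn5Δ and 126 bp in wild type.

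Among the nuclear regulators, STE12 and DIG1 had a promoter site in every list, and DIG2, FAR1 and KAR4 had none in any. This is 40.0% in each list, beside 38.7% of all genes in sba1Δ, 43.9% in gcn5Δ and 43.2% in wild type. At STE12 the site covered 160 bp of the window in sba1Δ, 256 bp in gcn5Δ and 307 bp in wild type, at chromosome VIII 273415 to 273980. DIG1 had its whole window of 500 bp covered in all 3 lists. The DIG1 coding sequence was covered at 100% in sba1Δ, 58.7% in gcn5Δ and 54.5% in wild type. There sba1Δ listed a single site of 2771 bp where the other lists had a pair. One of the pair crossed the 3 prime end of DIG1, with 679 bp of its coding sequence in gcn5Δ and 677 bp in wild type, and lay under the promoter window of MNN9. The other lay under the windows of DIG1 and the divergent gene CAM1. The sba1Δ site lay under the windows of MNN9, DIG1 and CAM1. KAR4, a partner of Ste12 at genes of nuclear fusion, had a site within its coding sequence in all 3 lists. A second site crossed its 3 prime end in gcn5Δ and wild type, with 42 bp and 52 bp of coding sequence. Coverage by all sites was 14.6% in sba1Δ, 41.3% in gcn5Δ and 50.2% in wild type. FAR1, which arrests the cell cycle in response to pheromone, had no promoter or coding site.

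Of the 12 genes of adhesion and fusion, 6 had a promoter site in sba1Δ, 8 in gcn5Δ and 7 in wild type. These are 50.0%, 66.7% and 58.3%, beside 38.7%, 43.9% and 43.2% of all genes. FUS1, needed for cell fusion and a common reporter of the pathway, had 209 bp of its window covered in sba1Δ, 341 bp in gcn5Δ and 270 bp in wild type, at chromosome III 71491 to 71760. PRM1, which acts in plasma membrane fusion, had 83 bp in sba1Δ, 403 bp in gcn5Δ and 442 bp in wild type. FIG1, a membrane protein of mating cells, had none in sba1Δ, 301 bp in gcn5Δ and 339 bp in wild type, at chromosome II 316520 to 316858. FUS1, PRM1 and FIG1 thus had the fewest covered bases in sba1Δ, as did AGA1 and PRM2, while FUS2, PRM4 and PRM5 had the most there. AGA1, the anchor subunit of a-agglutinin, had none in sba1Δ, 129 bp in gcn5Δ and 115 bp in wild type. The AGA1 site ranked above 22.1% of the wild-type list, and it dropped out of the wild-type list when the lists were trimmed by score to one size. In the full lists both subunit genes of a-agglutinin were without a promoter site in the sba1Δ list and had one in the other lists.

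FUS2, a fusion gene, had the reverse order, with 110 bp covered in sba1Δ, 29 bp in gcn5Δ and 0 bp in wild type. Its sites were low in rank, above 14.9% of the list in sba1Δ and 7.45% in gcn5Δ, and crossed the start codon. PRM4 and PRM5, induced by pheromone, had more of the window covered in the deletions. At PRM4 it was 480 bp in sba1Δ, 371 bp in gcn5Δ and 219 bp in wild type, and at PRM5 500 bp, 388 bp and 291 bp. At PRM2, also induced by pheromone, it was 5 bp in sba1Δ, 78 bp in gcn5Δ and 98 bp in wild type, and the site lay as well under the window of the divergent gene CST6. KAR5, PRM3 and PRM6 had no promoter site in any list, nor had FIG2, whose coding sequence held a site toward its 3 prime end in all 3 lists.

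The 17 genes with a promoter site in both sba1Δ and wild type mostly had less of the window under sites in sba1Δ. Less was covered at 12, more at 4 and the same at DIG1. This is 70.6% (44.0 to 89.7) with less, beside 42.0% of the 1648 such genes among all, and 23.5% (6.81 to 49.9) with more, beside 40.4%. The median covered share was 41.8% in sba1Δ and 61.4% in wild type for these 17, and 71.1% and 62.9% for all such genes. The promoter site of sba1Δ lay wholly inside the wild-type site at 10 of the 17, or 58.8% beside 33.8% of all such genes. It was narrower at 11 of the 17, or 64.7% beside 40.0% of all such genes, with a median width of 303 bp in sba1Δ and 373 bp in wild type. Over all such genes the median widths were 852 bp in sba1Δ and 467.5 bp in wild type. The mating genes thus mostly had narrower promoter sites in sba1Δ, where the median over all genes was wider. The genes with less were MFA1, MFA2, ASG7, STE6, GPA1, STE4, STE7, FUS3, STE12, FUS1, PRM1 and PRM2, and those with more were STE20, STE50, PRM4 and PRM5. These counts had no replicate check. In the better-scored 50% of each list less was covered at 4 of 8, or 50.0% beside 26.1% of 950 such genes, and more at 3. Over those 950 genes less was covered at 248 and more at 414.

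In gcn5Δ the same measure lay closer to the background. Of the 26 genes with a promoter site in both lists, 14 had less of the window covered, or 53.8% (33.4 to 73.4) beside 41.3% of 2232 such genes, and 11 had more, or 42.3% beside 44.4%. The site lay inside the wild-type one at 11, or 42.3% beside 32.7%, and was narrower at 14, or 53.8% beside 50.2%. The midpoint of the site differed from that in wild type by a median of 19.75 bp in gcn5Δ and 55.5 bp in sba1Δ, beside 25.0 bp and 90.5 bp over all such genes.

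**Figure D3:**
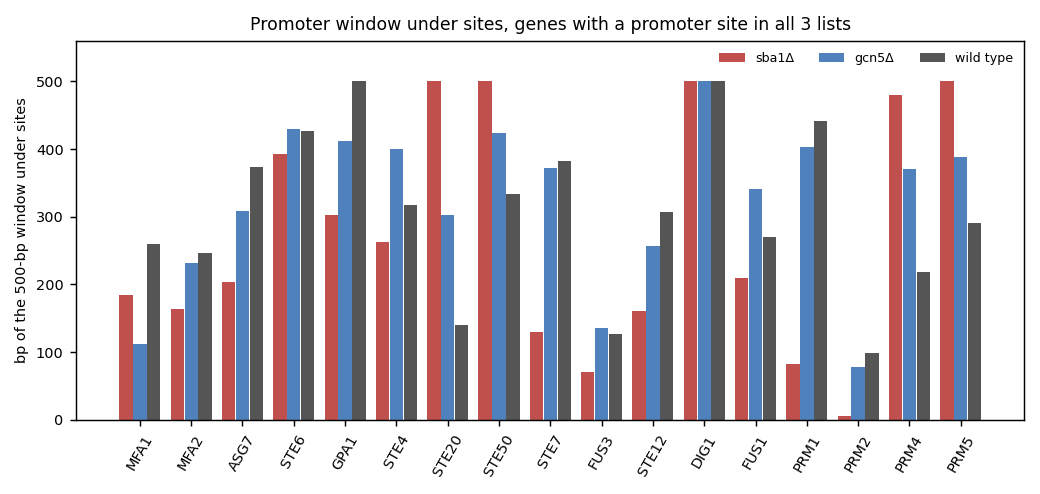
Length of the 500-bp promoter window under sites (bp, vertical axis) for the 17 mating genes with a promoter site in all 3 lists, as bars for sba1Δ, gcn5Δ and wild type. The sba1Δ bar is below the wild-type bar at 12 genes, such as PRM1 with 83 bp against 442 bp, and above it at 4, such as STE20 with 500 bp against 140 bp.

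Most promoter sites were centred in the window. In wild type the midpoint of 25 of the 26 sites lay upstream of the start codon, at a median of 264 bp, and 20 lay within the window. The sites were 115 to 1070 bp wide. In wild type 13 of the 26 also overlapped the promoter window of another gene, so a site cannot be assigned to the mating gene alone there. They were those of MFA2, STE6, GPA1, STE18, STE20, STE50, STE5, STE11, STE7, KSS1, DIG1, PRM1 and PRM2. Of the 26, 5 were centred in coding sequence, of the upstream gene at MFA2, SST2, STE20 and STE5 and of the gene itself at FUS3. The 9 sites without a call in sba1Δ ranked above a median of 59.0% of the wild-type list (22.1 to 85.6), and the 17 with a call above 71.0% (35.2 to 90.3), with ranges that overlapped. Their median widths in wild type were 258 bp and 373 bp. Genes whose upstream neighbour is divergent had a promoter site at 8 of 17 in sba1Δ, 11 in gcn5Δ and 11 in wild type. Those with a tandem neighbour had one at 12 of 24, 16 and 15. The shares over all divergent and all tandem genes were not computed, so these counts have no background.

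Coding sequence was covered at 15 of 41 genes in sba1Δ, 15 in gcn5Δ and 16 in wild type, or 36.6%, 36.6% and 39.0%, beside 32.2%, 31.5% and 33.6% of all genes. The mean coverage was 7.95% in sba1Δ, 7.05% in gcn5Δ and 7.50% in wild type, and the median was 0% in each. Over all genes the mean was 13.7% in sba1Δ, 8.24% in gcn5Δ and 8.08% in wild type. Coverage of 10% or more was found at 8 genes in sba1Δ, 5 in gcn5Δ and 8 in wild type, or 19.5%, 12.2% and 19.5%, beside 24.3%, 17.6% and 18.7% of all genes. FUS3 and DIG1 carried much of the mean of the mating genes. Without this pair, which was picked after seeing the values, it was 3.23% in sba1Δ, 3.34% in gcn5Δ and 4.58% in wild type.

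Coding coverage was higher than in wild type by 10 points or more at 4 genes in sba1Δ, which is 9.76% beside 17.3% of all genes, and lower by as much at 2, or 4.88% beside 8.05%. The 4 were FUS3, DIG1, STE20 with 17.6% in sba1Δ against 0% in wild type, and MSG5 with 16.3% against 0%. The 2 with less were KAR4 and PRM6. PRM6, a potassium transport gene, had 0% in sba1Δ against 25.4% in wild type. In gcn5Δ FUS3 and FIG1 were higher by this amount, 4.88% of genes beside 5.01% of all, and PRM6 was lower, 2.44% beside 4.70%. FIG1 had a site across its 3 prime end in gcn5Δ that covered 20.2% of it, against 0% in wild type. PRM6 had 0% in gcn5Δ. The shares stood below or near those of all genes, and with counts of 1 to 4 the intervals were wide.

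**Figure D4:**
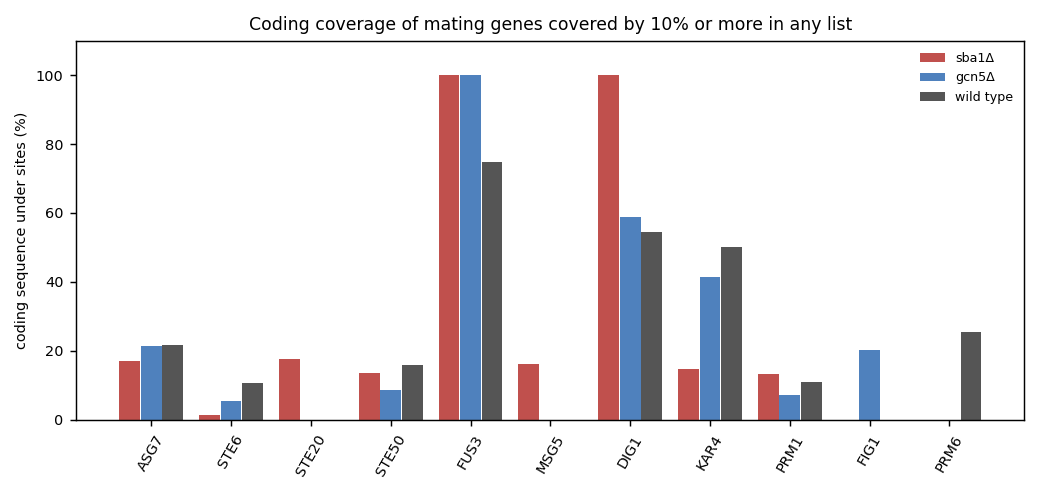
Percent of the coding sequence under sites (vertical axis) for the 11 mating genes covered by 10% or more in any list, as bars for sba1Δ, gcn5Δ and wild type. FUS3 stands at 100%, 100% and 74.7% and DIG1 at 100%, 58.7% and 54.5%, while PRM6 has a bar in wild type only and MSG5 and STE20 have bars in sba1Δ only.

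Outside the 41, a list of 31 other genes that act in mating had a promoter site at 13 in sba1Δ, 16 in gcn5Δ and 16 in wild type, or 41.9%, 51.6% and 51.6%, beside 38.7%, 43.9% and 43.2% of all genes. Of the 16 with a wild-type site, sba1Δ lacked it at 6, or 37.5% beside 36.5% of all genes, and gcn5Δ at 4, or 25.0% beside 14.0%. Of the 15 without, sba1Δ had a site at 3, or 20.0% beside 19.7%, and gcn5Δ at 4, or 26.7% beside 11.9%. The sba1Δ shares were near the background. CDC42 and BEM1, which set the axis of polarized growth, had a site in gcn5Δ and wild type and none in sba1Δ. CIK1 and KAR3, which form the motor of nuclear fusion, PRM9, and AKR1, a palmitoyltransferase gene, had one in wild type and in neither deletion. The sites of CIK1, KAR3 and AKR1 were low in rank, above 11.0%, 9.88% and 4.42% of the wild-type list. They also lay under the windows of VTI1, RRP15 and PEX10. The PRM9 site shared 33 bp with its window. RAM2, a subunit of the farnesyltransferase that modifies a-factor, and the phosphatase genes PTP2 and PTP3 had one in both deletions and none in wild type. In sba1Δ these ranked above 61.0%, 50.3% and 84.8% of the list. In gcn5Δ the RAM2 site ranked above 10.5%, the PTP2 site above 32.7% and the PTP3 sites above 31.9% and 80.8%. The RAM2 and PTP2 sites also lay under the windows of SPT23 and RET1. PCL2, a cyclin gene, had one in gcn5Δ alone, which depended on the window's edge. The gcn5Δ site shared 15 bp with the window. Sites on the same place had their near edge 507 bp upstream in wild type and 523 bp upstream in sba1Δ. Both deletions are compared with 1 wild-type list, and an error in it would count in each.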

How the data were processed

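DNase-seq site lists of 3 Saccharomyces cerevisiae strains were used, 1 library per strain, grouped by the genotype in the labels. The submitters' processing notes name Bowtie 0.12.7 and the build sacCer3. The sources used here do not give how sites were called or at what threshold. The score that the authors deposited for each site has no stated scale and served to rank sites within a list. Read depth is unknown.

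The gene table of assembly R64 was taken as the sacCer3 sequence, and strand was read from the systematic names. All 41 listed symbols matched, among 6002 nuclear protein-coding genes. The promoter window spanned 500 bp before the start codon, and a site had to share at least 1 bp with it. Coverage is the percent of bases under a site. Equal window coverage means a difference within 0.1 points. Shares carry exact Clopper-Pearson 95% intervals, and a share of 0 carries the limit of 3 counts; both cover counting over genes only. With 1 library per strain no test between strains was run. On simulated sites the code found 200 of 200 planted promoter sites among 6002 genes. The members and lists were chosen with earlier results of these data known. Values are given by name for members whose promoter call differed between lists, for those with 10% or more coding coverage in any list, and for the a-specific and alpha-specific genes. Members outside this rule, such as GPA1, STE4, STE7, STE12, STE23, FUS1, PRM2, PRM4 and PRM5, were given values after these had been seen. The comparison of window coverage and site width was chosen after seeing the data. Software was Python 3.11.15 with matplotlib 3.10.9, scipy 1.17.1, pandas 2.3.3 and numpy 2.4.6.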

Additional observations from a re-analysis of the deposited data

Results flagged for a closer look

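These values differed from wild type in opposite directions in the 2 deletions; this contrast was not tested, since each strain has 1 library. The number of mating genes with a promoter site was lower by 6 in sba1Δ (a difference of -6) and higher by 1 in gcn5Δ. Over all 6002 genes the directions were the same, with 2320 in sba1Δ, 2637 in gcn5Δ and 2595 in wild type. Mean coding coverage of the 41 genes was 0.449 points higher in sba1Δ and lower in gcn5Δ, a difference of -0.458 points. Without FUS3 and DIG1 it was below wild type in both. Over all genes the mean was 13.7% in sba1Δ, 8.24% in gcn5Δ and 8.08% in wild type. PRM1 coding coverage was 2.32 points higher in sba1Δ and lower in gcn5Δ, a difference of -3.78 points.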

How the results depend on the processing

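Read depth, caller and threshold are unknown, which limits what a missing site shows. No paired analysis was possible because each strain has 1 library and no result comes from a test. Of 1107 calls of a promoter site under 9 settings, 80 changed, 76 to no site and 4 to a site. In the better-scored 50% of each list, a promoter site was listed at 10 of 41 genes in sba1Δ (27.1% of all genes). Of the 23 with one in wild type, 15 had none in sba1Δ (42.3% of all genes) and 5 none in gcn5Δ (16.2%). Each list was cut at its own median score, so such a site can still be in the full list. Less of the window was covered at 4 of 8 in sba1Δ (26.1% of all such genes) and 8 of 18 in gcn5Δ (37.4%). More was covered at 3 of the 8 in sba1Δ (414 of 950 such genes among all) and 9 of the 18 in gcn5Δ (550 of 1380). With every site set to 250 bp, 1 was lost in gcn5Δ, or 4.0% beside 19.1% of all genes. Mean coding coverage was then 3.92% in sba1Δ, 3.69% in gcn5Δ and 4.51% in wild type. With a 250-bp window, 2 were gained in gcn5Δ, or 9.52% beside 9.46% of all genes. More of that window was covered at 2 of 13 in sba1Δ, beside 426 of 1331 such genes among all. In gcn5Δ less was covered at 9 of 20, or 45.0% beside 33.6%, and more at 5, beside 675 of 1876. With the window cut at the upstream coding sequence, 1 was lost in gcn5Δ (4.17% beside 14.5%) and 2 were gained (11.8% beside 11.3%). With the site midpoint in the window, 12 had a site in sba1Δ (29.3% beside 21.3%) and 0 were gained in gcn5Δ (beside 10.6%). With an overlap of 50 bp, 0 were gained in gcn5Δ (beside 11.2%). Without FUS3 and DIG1 mean coding coverage was 3.23%, 3.34% and 4.58% in sba1Δ, gcn5Δ and wild type. The window coverage settings and this omission were chosen after seeing the data. The equal-sized lists of the best scores, the merged lists and the 1000-bp window moved none of the counts over the 41 genes by over 1.5 times. With the equal-sized lists the calls of AGA1 in wild type and FUS2 in gcn5Δ were lost, and with the 1000-bp window STE5, KSS1 and STE23 gained a call in sba1Δ. The cause was not tested.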
